A study of Mus musculus with 5 samples.

Results

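The 37 genes described here encode the blood-clotting and complement proteins that hepatocytes secrete, chosen by symbol out of the 32285 genes of the matrix. Of them, 20 belong to coagulation with its contact system, inhibitors and fibrinolysis, and 17 to complement with its regulators. They were read in liver hepatocytes of male mice, wild type (WT) and of the strain C57BL/6J, on Normal Chow (lab diet #5053). A training period of 3 days, each with a 16 h overnight fast and an 8 h meal window, came first, and all mice had 20% sucrose in their drinking water on the experimental day. The fed library (0 h) was taken after 4 h of feeding, at clock hour 13. Mice of the other libraries had no food for 4, 8, 16 or 24 h and were sampled at clock hours 17, 21, 5 and 13. Each time was 1 single-cell library with no replicate, and how many animals it held is not stated in the labels. Fasting time and hour of day therefore cannot be told apart, except between 24 h and 0 h, which share the clock hour. Every difference below is one between libraries, without a test across animals.

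Clotting runs as a cascade of proteases made by the liver as inactive precursors, several of which need vitamin K. It ends with thrombin, which turns fibrinogen into fibrin, and plasmin dissolves the clot. Complement is a related plasma cascade. Lectins, antibodies or spontaneous turnover activate C3, and the terminal proteins C5 to C9 assemble a pore in the target membrane. Fibrinogen and several complement proteins belong to the acute-phase response, in which the liver changes its secretion under inflammatory cytokines. Periportal hepatocytes, near the incoming blood, and pericentral hepatocytes, near the central vein, differ in many secreted proteins.

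Hepatocytes were the barcodes with at least 1000 UMIs (unique molecular identifiers, each marking 1 captured RNA molecule), at least 500 genes and 2 to 30% mitochondrial UMIs. They numbered 7826, 4567, 2716, 9125 and 4576 at 0, 4, 8, 16 and 24 h, with 33521626 to 45532684 nuclear-encoded UMIs per library. Median UMIs per hepatocyte were 5408, 12097, 15005, 4391 and 8979 in that order, so the 16 h library was the shallowest per cell. All 7 hepatocyte markers passed 50 CPM (UMIs of a gene per 1000000 nuclear-encoded UMIs) in each library. The markers of 8 other cell types summed to at most 81.4 CPM per list, a value reached by the endothelial list at 0 h. Of all these other markers, Sox9 at 0 and 16 h and Alas2 at 8 h alone passed 50 CPM. The libraries shared some barcode sequences (519 in all, 146 of the 28810 hepatocytes). Barcodes that passed the other limits but had under 2% mitochondrial UMIs were left out of the hepatocyte values, and numbered 2172, 5345, 576, 234 and 5400 in time order.

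Together the 37 genes made up 2.85%, 2.67%, 2.44%, 3.90% and 2.48% of nuclear-encoded UMIs in the libraries in time order. The 16 h library stood apart through coagulation genes, at 2.89% against 1.46 to 1.89% elsewhere. Complement genes held between 0.966% and 1.07% in every library. The 3 fibrinogen genes alone held 0.990%, 0.828%, 0.779%, 1.95% and 0.648%. Of the 37 genes, 34 were at 50 CPM or more in all 5 libraries and 36 in at least 1. The exception was F11, the factor XI gene, at 11.9 to 23.0 CPM. The highest library exceeded the lowest by at least 2-fold for 10 genes and by under 1.5-fold for 10, with C6 (9.92-fold) and C8g (1.19-fold) as the extremes. Counts are of RNA 3′ ends, so levels are compared between libraries and not between genes.

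A gene was called higher or lower when its CPM differed by at least 1.5-fold and reached 50 in either library. At 4 h against fed, 1 member was higher (C3) and 2 were lower (Kng1 and Mbl2) of 35 assessed. Among all genes at that level 13.7% were higher and 16.5% lower in that comparison. At 8 h, 2 were higher (Serpinf2 and C6) and 7 lower (F13b, Kng1, Kng2, Mbl2, Cfb, Cfi and Vtn) of 35, against 17.9% and 23.2% of all genes. At 16 h, 4 were higher (Fga, Fgb, Fgg and Klkb1) and 1 lower (C2) of 36 assessed, against 10.3% and 13.3%. At 24 h, 1 was higher (C3) and 9 lower (Fga, F13b, Kng1, Mbl2, C2, C6, C8a, C8b and C9) of 35, against 16.8% and 20.3%. For higher at 16 h the share of members lay close to that of all genes (4 of 36 against 10.3%), with the neighbouring Fga, Fgb and Fgg among the 4. It was above that of all genes for lower at 24 h (9 of 35 against 20.3%), and below it in the other 6 directions.

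On the log2 scale the members had median ratios to fed of -0.07 (4 h), -0.23 (8 h), 0.14 (16 h) and -0.16 (24 h), beside -0.03, -0.04, 0.00 and -0.03 for all genes assessed. By this count 19 members were called at no fasted time, 12 of them coagulation and 7 complement genes, and 2 (Kng1 and Mbl2) were called at 3 of the 4. F11, among the 19, was under 50 CPM in every library and could not be called. How many of all genes were called as often was not counted, so these numbers are not read as a trait of the members. Scaling by TMM raised the all-gene median to 0.16, 0.20, 0.10 and 0.17. The split of all genes into higher and lower then changed from 404 and 486 to 628 and 333 at 4 h, from 540 and 699 to 875 and 513 at 8 h, from 309 and 398 to 422 and 305 at 16 h, and from 500 and 604 to 775 and 456 at 24 h. All 27 calls of members against fed kept their direction under that scaling and in 10 other settings. In at least 1 of these 11 settings the ratio fell inside 1.5-fold for C3 at 4 h, Kng2, Cfb, Cfi and Vtn at 8 h, and F13b, Kng1, C3 and C8b at 24 h.

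**Figure D1:**
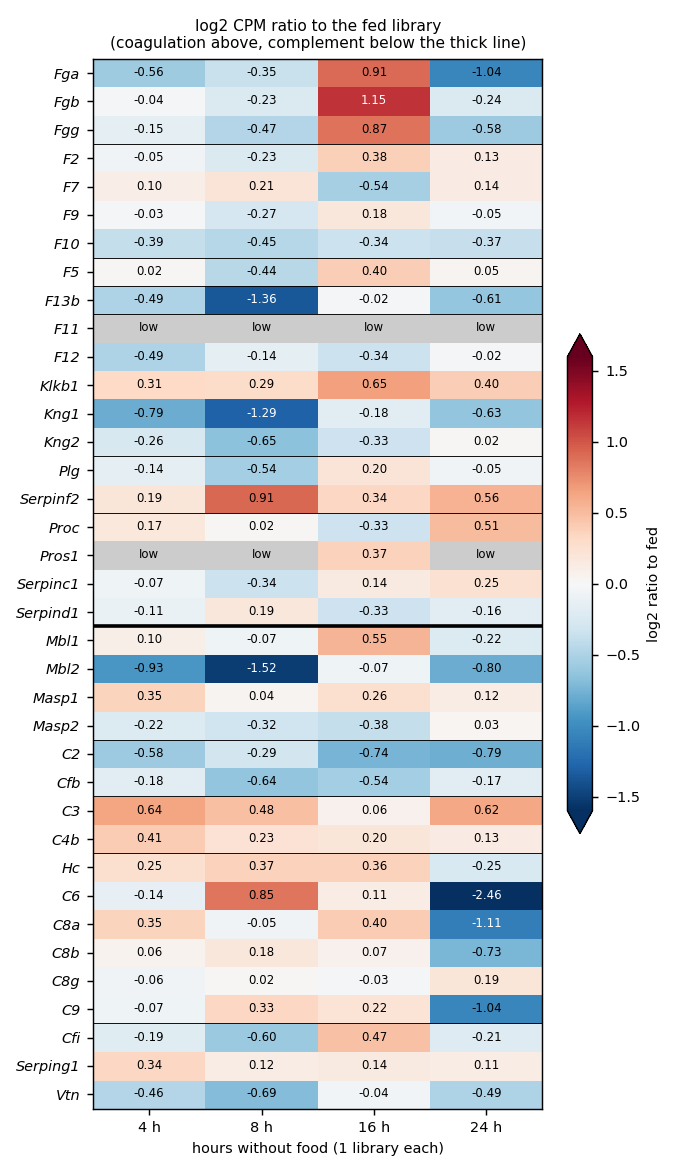
Log2 ratio of CPM in each fasted library to the fed library (columns, 1 library each) for the 37 members (rows, by role; thin lines part the roles, the thick line parts coagulation from complement). Red is higher and blue lower than fed, and grey cells marked low had under 50 CPM in both libraries. The 3 fibrinogen genes are red at 16 h (0.87 to 1.15), and C6, C8a, C8b and C9 are blue at 24 h (-0.73 to -2.46).

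Fibrinogen is built from 3 chains, whose genes lie side by side on chromosome 3 (GRCm38, 83007724 to 83049863) in the order Fgg, Fga, Fgb. All 3 were highest in the 16 h library and lowest at 24 h. Fga (ENSMUSG00000028001), the alpha chain, stood at 3857, 2608, 3019, 7253 and 1874 CPM at 0, 4, 8, 16 and 24 h. Fgb (ENSMUSG00000033831), the beta chain, stood at 3108, 3032, 2658, 6906 and 2636 CPM. Fgg (ENSMUSG00000033860), the gamma chain, stood at 2932, 2642, 2117, 5377 and 1968 CPM. Only the 16 h library was above the fed one for these genes, and the other fasted libraries were below it. Against fed, the 16 h log2 ratio was 0.91 for Fga (95% counting interval 0.90 to 0.92), 1.15 for Fgb (1.14 to 1.16) and 0.87 for Fgg (0.86 to 0.89). From 16 h to 24 h the genes fell by 1.95, 1.39 and 1.45 on the log2 scale. At 24 h Fga alone of the 3 was called lower than fed (-1.04), with Fgb at -0.24 and Fgg at -0.58.

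The rise at 16 h was seen in each of 3 equal parts of the hepatocytes ordered from central to portal. For Fga the log2 ratios to the same part of the fed library were 1.15 central, 0.88 middle and 0.81 portal. For Fgb they were 1.34, 1.13 and 1.06, and for Fgg 1.08, 0.85 and 0.78. Of 12 acute-phase genes, 6 were called higher and 1 (Steap4) lower than fed in the same library, beside 10.3% and 13.3% of all genes. Saa2, a serum amyloid A gene whose reads may be shared with its near-identical neighbour Saa1, stood at 217, 1085, 12.8, 4946 and 9.66 CPM in time order. Lcn2, another acute-phase gene, stood at 10.7, 45.9, 7.07, 287 and 16.0 CPM, while Hp, the haptoglobin gene, stood at 2175, 2380, 1553, 2331 and 2211 CPM. Saa2 was thus 5.00-fold above fed already at 4 h, when no fibrinogen gene was above fed. Whether the state of this library or its clock hour bears on fibrinogen was not tested.

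**Figure D2:**
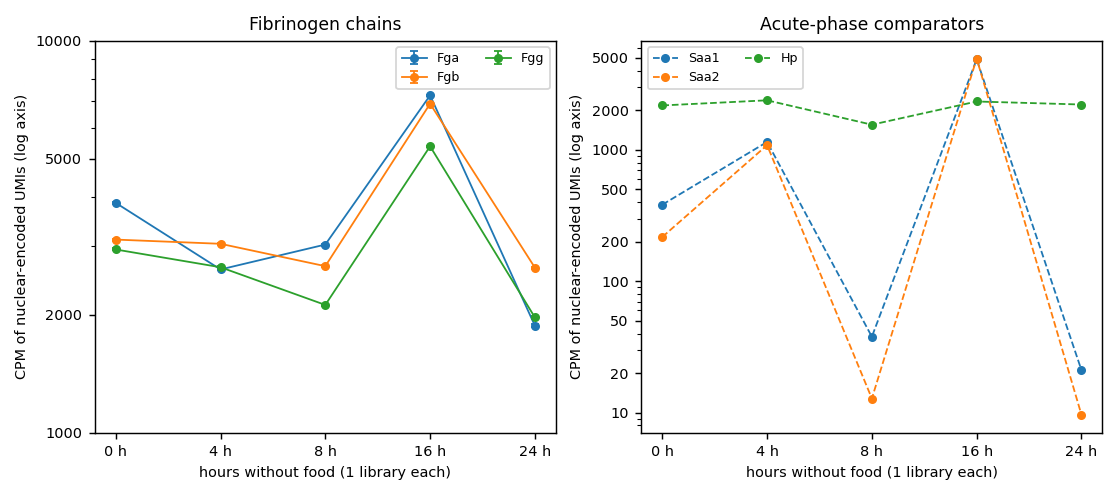
CPM of nuclear-encoded UMIs (log axes) in the 5 libraries for the fibrinogen chains (left, with 95% Poisson intervals that are smaller than the points) and for 3 acute-phase genes (right, dashed, without intervals). All 3 chains peak at 16 h, between 5377 and 7253 CPM, where Saa1 and Saa2 also peak, while Hp stays between 1553 and 2380 CPM.

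Because the fibrinogen genes moved together, the bases upstream of their starts are shown, from RefSeq (GRCm38.p6), 5′ to 3′ on the strand of the gene. Capitals mark letters found on either strand that match CTGGGAA, the core of interleukin-6 response elements, TTGCNNAA, a C/EBP-type core, or GTTAAT, an HNF1 half-site. Fgb was read from chr3:83049864-83050113 (minus strand), Fgg from chr3:83007474-83007723 (plus strand) and Fga from chr3:83025903-83026075 (plus strand), with the last 77 bases of the Fga window left out because they lie in the GENCODE gene.
Fgb: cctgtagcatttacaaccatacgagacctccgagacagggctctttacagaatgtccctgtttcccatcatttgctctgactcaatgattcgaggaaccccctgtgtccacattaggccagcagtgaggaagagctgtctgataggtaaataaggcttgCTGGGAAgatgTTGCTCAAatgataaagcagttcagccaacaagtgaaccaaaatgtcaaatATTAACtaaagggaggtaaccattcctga
Fgg: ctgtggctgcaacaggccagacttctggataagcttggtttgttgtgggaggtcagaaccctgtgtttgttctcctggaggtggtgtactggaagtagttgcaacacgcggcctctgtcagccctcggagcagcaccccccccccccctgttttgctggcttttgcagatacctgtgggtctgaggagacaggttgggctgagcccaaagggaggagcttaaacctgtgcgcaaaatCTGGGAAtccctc
Fga: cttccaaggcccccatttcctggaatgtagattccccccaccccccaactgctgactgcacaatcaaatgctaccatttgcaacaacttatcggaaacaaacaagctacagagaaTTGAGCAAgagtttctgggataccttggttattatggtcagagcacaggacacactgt
Fgb held 1 match to each of the 3 patterns, CTGGGAA at -91 to -85 from the RefSeq start, the C/EBP-type core at -80 to -73 and the half-site at -29 to -24. In Fgg the CTGGGAA letters stood at -13 to -7, and in Fga the C/EBP-type core stood at -135 to -128, with a half-site at -43 to -38 beyond the letters shown. Of 27025 promoter windows of 250 bases, 9.08% held CTGGGAA, 9.55% TTGCNNAA and 6.52% GTTAAT. Of the 28 members with an entry, 4 held CTGGGAA (Fgb, Fgg, F9 and Masp2), 8 TTGCNNAA and 7 GTTAAT. F9 and Masp2, which carry the same CTGGGAA letters as Fgb and Fgg, stood at 0.18 and -0.38 against fed at 16 h. A match describes letters and is no evidence of binding. Kng1, Plg, Proc, Masp1, C2, Cfb, C4b, Cfi and Serping1 had no entry.

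The vitamin K-dependent proteases lay closer to their fed levels than fibrinogen did at 16 h. F2, which encodes prothrombin, stood at 1001, 967, 853, 1303 and 1095 CPM, with its highest level at 16 h (log2 ratio to fed 0.38). F7, the factor VII gene of the tissue factor pathway, went the other way at 16 h, at 138, 148, 159, 94.95 and 151 CPM, and was called lower than at 8 h (-0.74) and higher again at 24 h (0.67, a call lost in 3 of 11 other settings with ratios from 0.19 to 0.81). F10, the factor X gene 1498 bases from F7 on chromosome 8, stood at 346 CPM fed and 253 to 273 CPM in the fasted libraries. F9, the factor IX gene on the X chromosome, ranged from 173 to 237 CPM. None of these 4 genes was called against fed. F5, the cofactor that speeds thrombin formation, stood at 298, 301, 219, 393 and 308 CPM and was called higher at 16 h than at 8 h (0.84).

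F13b, the carrier subunit of the clot-crosslinking factor XIII, stood at 320, 228, 125, 316 and 209 CPM. Its 8 h level was the lowest and its 16 h level was back beside the fed one. Against fed this gave -1.36 on the log2 scale at 8 h (interval -1.41 to -1.31), then -0.02 at 16 h and -0.61 in the 24 h library. That last value ran from -0.98 to -0.44 over the other settings.

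In the contact system, Kng1, which encodes the kininogen that releases bradykinin, stood at 2174, 1254, 890, 1924 and 1403 CPM. Like F13b, Kng1 was lowest at 8 h (-1.29, interval -1.31 to -1.27) and close to fed at 16 h (-0.18). Kng2, a second kininogen gene 28.4 kb away, stood at 258, 216, 164, 205 and 263 CPM. The kininogen genes are similar in sequence, so the division of reads between them is uncertain. Klkb1, which encodes plasma prekallikrein, moved otherwise, at 309, 384, 378, 487 and 407 CPM, above fed at every fasted time and called at 16 h (0.65, interval 0.62 to 0.69). F12, the factor XII gene, ranged from 267 to 377 CPM with no call.

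Plg, the plasminogen gene, and Serpinf2, whose product alpha-2-antiplasmin blocks plasmin, lay on opposite sides of the fed level at 8 h. Plg stood at 1357, 1231, 933, 1564 and 1308 CPM, lowest at 8 h (-0.54 against fed, under the 1.5-fold limit). Serpinf2 stood at 298, 339, 561, 376 and 439 CPM, highest at 8 h (0.91, interval 0.88 to 0.95). Among the anticoagulants, Serpinc1 (antithrombin) stood at 1087, 1036, 859, 1196 and 1291 CPM and Serpind1 (heparin cofactor II) at 465, 430, 529, 370 and 415 CPM. Proc, the protein C gene, stood at 293, 331, 297, 232 and 417 CPM, and was called higher at 24 h than at 16 h (0.84). Pros1, the gene of its cofactor protein S, ranged from 34.2 to 51.3 CPM. No anticoagulant was called against fed at any time.

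Mannose-binding lectins bind microbial sugars and start the lectin pathway. Mbl2 stood at 655, 345, 228, 626 and 377 CPM, and Mbl1 at 109, 117, 104, 160 and 93.7 CPM. Mbl2 was lower than fed at 4 h (-0.93), 8 h (-1.52, interval -1.56 to -1.49) and 24 h (-0.80), and at -0.07 at 16 h, while Mbl1 was called against fed at no time. The proteases that act with these lectins kept within narrow ranges, Masp1 between 101 and 129 CPM and Masp2 between 157 and 208 CPM.

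C2 and Cfb, the protease subunits of the C3-cleaving complexes, lie 85 bases apart on chromosome 17. C2 stood at 123, 82.2, 100, 73.6 and 71.1 CPM and was lower than fed at 16 h (-0.74) and 24 h (-0.79). Cfb stood at 638, 564, 411, 439 and 566 CPM, with a call at 8 h (-0.64). Both were highest in the fed library. C3, the hub of the system, had its lowest level there instead, at 2830 CPM against 4397, 3935, 2956 and 4354 CPM. C3 was higher at 4 h (0.64, interval 0.63 to 0.65) and 24 h (0.62), and close to fed at 16 h (0.06). The 4 h call for C3 was lost in 5 of 11 other settings, with ratios from 0.40 to 0.79, and the 24 h call in 4, with ratios from 0.24 to 0.80. C4b stood at 456, 605, 536, 523 and 498 CPM with no call, and may share reads with the near-identical C4a.

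The terminal pathway showed the largest drop of the whole set, and it came at 24 h. C6 (ENSMUSG00000022181, chromosome 15, 4727175 to 4814967), which joins C5b to start the pore, stood at 83.7, 76.2, 151, 90.6 and 15.2 CPM. C6 was highest at 8 h (0.85, interval 0.79 to 0.92) and then 5.49-fold below fed at 24 h (log2 -2.46, -2.59 to -2.33). C8a (ENSMUSG00000035031), the alpha chain of C8, stood at 360, 460, 347, 476 and 167 CPM. Its 24 h level was below all the others (-1.11 against fed, -1.15 to -1.07). C8b (ENSMUSG00000029656), the beta chain, 11.1 kb from C8a on chromosome 4, stood at 198, 206, 224, 207 and 119 CPM (-0.73 at 24 h, -0.78 to -0.68). C9 (ENSMUSG00000022149), the subunit that polymerizes into the pore and lies on chromosome 15 like C6, stood at 606, 579, 763, 704 and 295 CPM (-1.04 at 24 h, -1.07 to -1.01). In these 4 genes the 24 h library was the lowest by a wide margin, and no other fasted library was called lower than fed.

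C6, C8a, C8b and C9 encode pore-forming proteins of the perforin family. The other 2 terminal genes, which are not of that family, were not called at 24 h. Hc, which encodes C5, stood at 441, 525, 568, 567 and 372 CPM (-0.25 at 24 h), and C8g, the gamma chain of C8, of the lipocalin family, at 611, 586, 621, 597 and 699 CPM (0.19). So 4 of 6 terminal genes were called lower at 24 h, with a median of -0.88, where 20.3% of all genes were lower. Against the 16 h library all but C8g were called lower (19.5% of all genes were), C6 by a log2 ratio of -2.57, C8a -1.51, C9 -1.25, C8b -0.80 and Hc -0.61. The call for C8b against fed was lost in 2 of 11 other settings, and those for C6, C8a and C9 in none. The call for Hc against 16 h was lost in 5.

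The drop against fed was present in each of the 3 parts of that order. C6 stood at log2 ratios of -2.83 central, -2.27 middle and -2.46 portal. C8a stood at -1.16, -1.19 and -1.09, C9 at -1.33, -1.01 and -0.99, and C8b at -0.94, -0.79 and -0.61. Central landmark genes were also low in the 24 h library, where 8 of 12 assessed were called lower with a median of -1.75. Cyp2e1, the central gene of the score, stood at 1404 CPM fed and 478 CPM at 24 h. Beyond the values within these parts, how far this shift enters the drop was not tested.

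**Figure D3:**
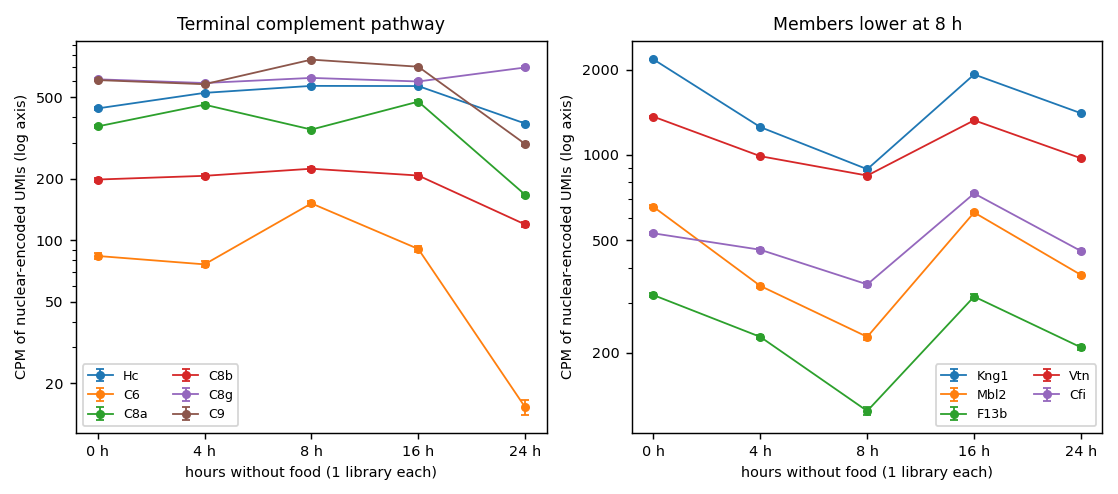
CPM of nuclear-encoded UMIs (log axes) in the 5 libraries for the 6 terminal complement genes (left) and for 5 members that were lowest at 8 h (right), with 95% Poisson intervals mostly smaller than the points. C6, C8a, C8b and C9 drop at 24 h while C8g does not. Kng1, Mbl2, F13b, Vtn and Cfi reach their lowest level at 8 h and are near or above the fed level at 16 h. Cfb and Kng2, also called lower at 8 h but not drawn, stayed below fed at 16 h (439 against 638 CPM and 205 against 258 CPM).

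The upstream bases of the 4 genes that dropped together are given in the same way, with the same 3 patterns in capitals. C6 was read from chr15:4726960-4727174, C9 from chr15:6445096-6445326 and C8b from chr4:104766067-104766316 (all plus strand), and C8a from chr4:104876399-104876648 (minus strand). The last 35 bases of the C6 window and the last 19 of the C9 window were left out because they lie in the GENCODE genes.
C6: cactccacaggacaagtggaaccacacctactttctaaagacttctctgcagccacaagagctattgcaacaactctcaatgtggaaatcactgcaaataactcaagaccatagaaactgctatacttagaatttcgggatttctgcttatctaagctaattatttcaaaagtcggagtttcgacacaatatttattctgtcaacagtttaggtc
C9: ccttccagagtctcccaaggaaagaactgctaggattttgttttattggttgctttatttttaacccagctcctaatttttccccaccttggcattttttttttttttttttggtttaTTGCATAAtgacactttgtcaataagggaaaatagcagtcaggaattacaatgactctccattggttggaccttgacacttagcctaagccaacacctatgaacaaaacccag
C8a: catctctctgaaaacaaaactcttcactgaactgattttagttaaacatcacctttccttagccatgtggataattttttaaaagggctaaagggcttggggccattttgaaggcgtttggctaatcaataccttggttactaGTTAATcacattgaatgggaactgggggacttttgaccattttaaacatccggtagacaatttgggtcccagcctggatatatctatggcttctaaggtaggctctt
C8b: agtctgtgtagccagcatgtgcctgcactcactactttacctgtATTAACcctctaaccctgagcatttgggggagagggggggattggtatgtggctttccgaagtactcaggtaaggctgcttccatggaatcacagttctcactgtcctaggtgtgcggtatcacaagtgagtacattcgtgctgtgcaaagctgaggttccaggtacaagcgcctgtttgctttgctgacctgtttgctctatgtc
C8a and C8b each held an HNF1 half-site, at -107 to -102 and -206 to -201. C9 held a C/EBP-type core at -132 to -125. None of the 3 patterns was found in the C6 window, so no single one of them was shared by all 4 genes.

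Among the regulators, Cfi, the factor I protease that inactivates C3b, stood at 529, 463, 349, 731 and 458 CPM, lowest at 8 h (-0.60) and highest at 16 h (0.47, under the limit). The 8 h call for Cfi held in 5 of 11 other settings, with ratios from -0.64 to -0.39. Vtn, which encodes vitronectin, an inhibitor of pore assembly, stood at 1365, 990, 846, 1325 and 973 CPM (-0.69 at 8 h). Serping1, the C1 inhibitor gene, which also restrains the contact system, stayed between 353 and 446 CPM.

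Between successive libraries, the step from 4 to 8 h gave calls for 4 members, higher for Serpinf2 and C6 and lower for F13b and Mbl2, against 5.47% higher and 8.83% lower among all genes. From 8 to 16 h, 12 of 36 members were higher (Fga, Fgb, Fgg, F2, F5, F13b, Kng1, Plg, Mbl1, Mbl2, Cfi and Vtn) and 2 lower (F7 and C6), against 26.2% and 21.8% of all genes. The coagulation genes gave 8 of these higher calls among 19 assessed and the complement genes 4 among 17. From 16 to 24 h, 2 members were higher (F7 and Proc) and 12 lower (Fga, Fgb, Fgg, F13b, Mbl1, Mbl2, Hc, C6, C8a, C8b, C9 and Cfi), against 18.5% and 19.5%. Of these 32 calls, 21 held in all 11 other settings. The exceptions were F13b and Mbl2 at the 8 h step, F2, Mbl1 and Vtn at the 16 h step, and F7, F13b, Proc, Mbl2, Hc and Cfi at the 24 h step. F2 and, at the 8 h step, Mbl2 were each lost in 7 of the 11. Under TMM the higher and lower genes of the whole set changed from 801 and 667 to 634 and 878 at the 16 h step, and from 552 and 584 to 680 and 474 at the 24 h step. With all UMIs as denominator the 8 h step changed from 153 and 247 to 296 and 120. Across members, 13 had their lowest level at 8 h, 12 at 24 h and 13 their highest at 16 h. The same tally was not made for all genes, so it is not read as a trait of the members. These steps share libraries with the comparisons to fed and are the same values in another order.

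Other genes of both systems were read for context. Of 23 other coagulation and fibrinolysis genes, 9 were assessed at 24 h against fed, with 2 higher, 5 lower and a median of -0.73. Of all genes 16.8% were higher and 20.3% lower there. Proz, the protein Z gene, stood at 0.83 and Hrg, which encodes histidine-rich glycoprotein, at 0.63, while Vkorc1, the vitamin K-recycling enzyme, was at 0.04. The lowest were Lman1 (-1.10) and Mcfd2 (-0.79), which encode the receptor pair that carries factors V and VIII out of the endoplasmic reticulum, and Cpb2 (-0.81), whose product slows fibrinolysis. Lman1 was called lower at all 4 fasted times, at 496, 290, 213, 330 and 231 CPM, while F5, the gene of its cargo, was called against fed at none. Cpb2 stood at 489, 330, 226, 615 and 279 CPM, lowest at 8 h and highest at 16 h.

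Of 27 other complement genes, 13 were assessed at 24 h, with 1 higher, 4 lower and a median of -0.16, against the same shares. Cpn2, the regulatory subunit of carboxypeptidase N, an enzyme that inactivates anaphylatoxins, was higher (0.59). C1rl (0.27) and C1s1 (0.09), proteases of the C1 kind, were not called. The lowest were Crp (-1.12) and Apcs (-0.89), the pentraxins, and C4bp (-0.61), the C4b-binding regulator. At 16 h Apcs was 6.01-fold above fed (51.5 to 310 CPM) and C4bp was higher as well (0.64). The same 9 coagulation and 13 complement genes in number were assessed at the other times. At 4 h 1 coagulation gene was higher and 1 lower, and 1 complement gene higher and 0 lower (13.7% and 16.5% of all genes). At 8 h these were 1 and 3, and 1 and 5 (17.9% and 23.2%), and at 16 h 0 and 2, and 3 and 0 (10.3% and 13.3%).

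The axis from the portal tract to the central vein was read within each library from Cyp2f2, a portal gene, and Cyp2e1, a central gene, and the hepatocytes were divided into 3 equal parts by it. These parts are ranges of a score and not positions in tissue. Members called higher in the portal part were, in time order, 3 of 35, 9 of 36, 0 of 35, 2 of 36 and 18 of 34. Among all genes the shares were 1.69%, 4.13%, 1.41%, 2.50% and 9.98%. Mbl1 alone was called lower in the portal part, at 16 h, where 5.63% of all genes were. The median of the members was 0.24, 0.43, 0.20, 0.05 and 0.59, beside -0.05, -0.06, -0.05, -0.10 and 0.13 for all genes.

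Depth and mitochondrial share differed between the parts. The central part had a median of 2904 UMIs per cell at 0 h, 3029 at 4 h and 2962 at 24 h, against 5854, 18690 and 11220 in the portal part. Among hepatocytes with at least 5000 UMIs the central and portal medians were 7569 and 7401 at 0 h, 15190 and 18320 at 4 h, and 13880 and 11930 at 24 h. The members called higher in the portal part then numbered 0, 5, 0, 2 and 1, and their medians were 0.10, 0.34, 0.16, 0.05 and 0.33. The shares of all genes called were then 0.489%, 2.44%, 1.04%, 2.20% and 0.370%. At 24 h 1 call (Serpinc1) was thus found among the deeper cells against 18 among all, while 34 of 34 assessed members were above 0. The median mitochondrial share at 24 h was 10.8% in the central part and 18.4% in the portal one, and with at least 5% mitochondrial UMIs 0 members and 0.640% of all genes were called higher there. The 5 calls among deeper cells at 4 h were Kng2, Serpinc1, Cfb, Hc and C8a.

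Over all hepatocytes, whose parts differ in depth, 25 of the 37 members were above 0 in all 5 libraries. Of these, 14 were coagulation and 11 complement genes, while 11 members had both signs and 1 was below 0 throughout. How many of all genes were above 0 in all 5 was not counted. Among the deeper cells 28 of 35, 31 of 36, 29 of 35, 22 of 36 and 34 of 34 assessed members were above 0 in time order. The medians of all genes there were -0.06, -0.09, -0.04, -0.09 and -0.11. Cfb, the alternative-pathway protease gene, had portal over central ratios of 0.75, 0.88, 0.43, 0.67 and 0.65 in time order, and 0.42, 0.65, 0.35, 0.61 and 0.56 among the deeper cells. In every library Cfb was thus higher toward the portal end, with or without the shallow cells. C8a gave 0.69, 1.05, 0.54, 0.31 and 0.76, and 0.32, 0.72, 0.46, 0.23 and 0.26 in deeper cells. Serpind1 gave 0.53, 0.64, 0.39, 0.68 and 0.67, and 0.26, 0.44, 0.34, 0.62 and 0.32.

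The mannose-binding lectin gene Mbl1 ran the opposite way in all 5 libraries (-0.27, -0.19, -0.32, -0.67 and -0.21). It was lower toward the portal end most clearly at 16 h, where it stood at 218 CPM in the central part, 131 in the middle and 137 in the portal one. Among deeper cells the 16 h value for Mbl1 was -0.63, but 4 h and 24 h gave 0.04 and 0.11. At 16 h Saa1 and Saa2 were central as well, at 6218 and 6329 CPM in the central part against 4077 and 4098 CPM in the portal one. The fibrinogen genes had portal ratios of 0.02 to 0.05 in that library, against 0.30 to 0.67 in the other 4. Among deeper cells the contrast was smaller, at 0.02 to 0.08 against 0.15 to 0.44. The fed library then had 0.15 to 0.20, and Fga at 24 h had 0.33 in place of 0.67.

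**Figure D4:**
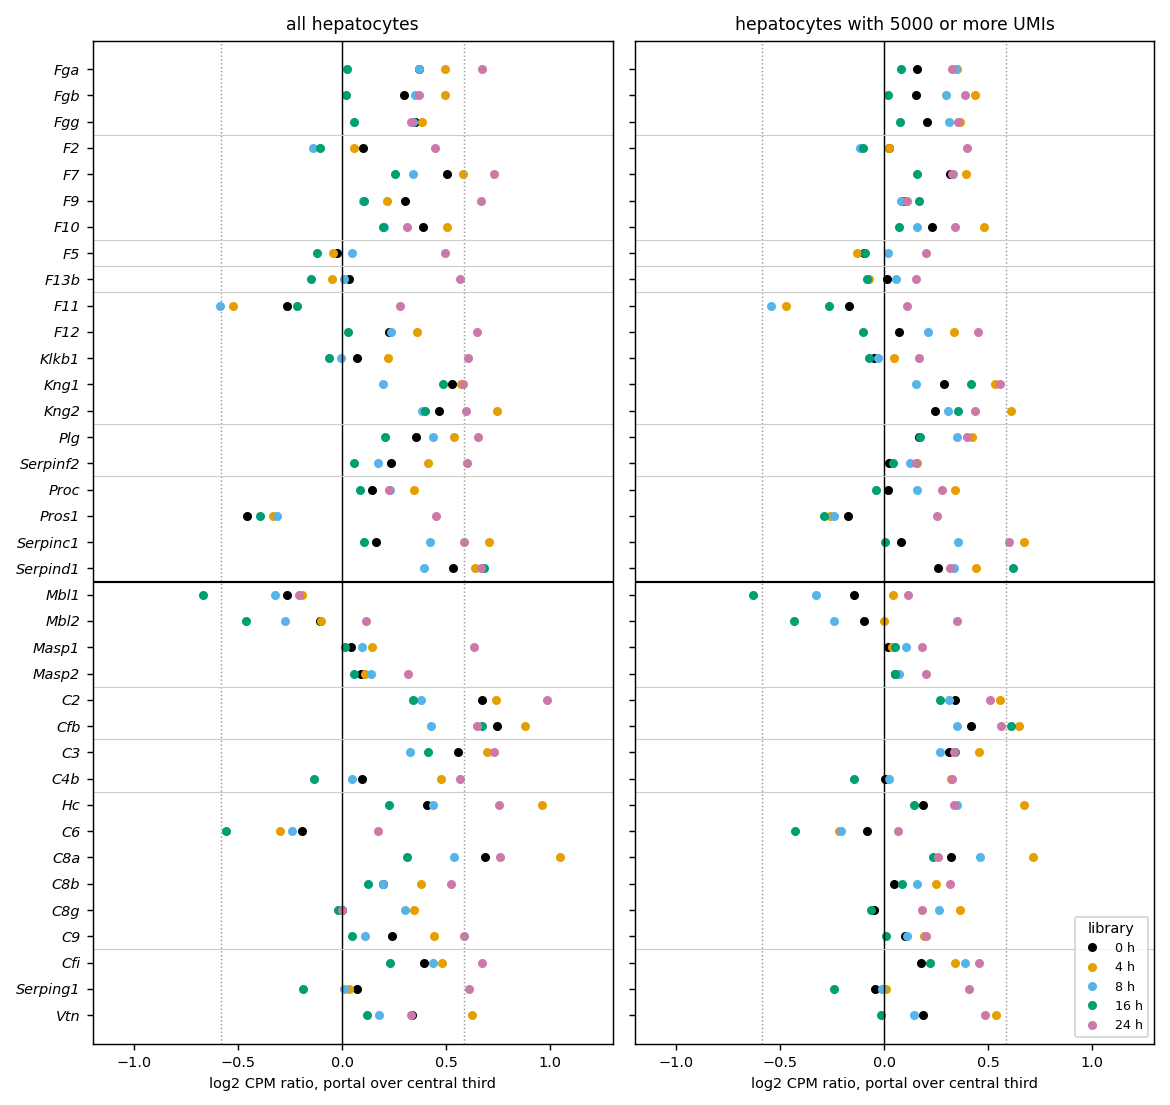
Log2 ratio of CPM in the portal part over the central part for each member (rows, by role) in each of the 5 libraries (colours), for all hepatocytes (left) and for those with 5000 or more UMIs (right). Dotted lines mark 1.5-fold and the horizontal black line parts coagulation from complement. Most points lie to the right of 0, Mbl1 lies to the left in all libraries in the left panel, and 1 point of the 24 h library (Serpinc1) lies beyond 1.5-fold in the right panel.

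Hepatocytes of each library were also divided into 3 equal parts by the share of their UMIs from 12 acute-phase genes, none of them a member. At 16 h this parted cells with 231 CPM of Saa2 from cells with 9645 CPM, at a median of 4512 and 4690 UMIs per cell. The median mitochondrial share was 15.9% in the lowest and 12.1% in the highest part, Cyp2f2 stood at 1779 and 1392 CPM and Cyp2e1 at 1925 and 2475 CPM, and their part in the differences was not tested. Of 36 members, 13 were higher in the highest part and 0 lower, against 3.43% higher among all genes. Complement genes gave 11 of 17 and coagulation genes 2 of 19, with medians of 0.65 and 0.11 beside -0.09 for all genes. The complement calls were C4b (0.95), Mbl1 (0.88), C8a (0.83), Hc (0.82), Serping1 (0.82), Cfb (0.74), C8b (0.69), C9 (0.68), Vtn (0.65), C6 (0.63) and C3 (0.61). C4b, for instance, stood at 353, 518 and 682 CPM from the lowest to the highest part, and Hc at 405, 561 and 718 CPM. Mbl2 (-0.03) and C8g (0.07) stood apart from these. Among cells with at least 5000 UMIs 9 members were called higher (3.17% of all genes were), with Cfb (0.43), Vtn (0.48), C6 (0.42), C3 (0.44) and Fgb (0.55) no longer among them and Fga (0.59) added. With at most 15% mitochondrial UMIs 7 were called (2.40% of all genes). The serum amyloid genes alone as score gave 10 (4.00%), with Cfb at 0.38, C3 at 0.39 and Vtn at 0.41. Mbl1, C4b, Hc, C8a, C8b and Serping1 were called in all 6 other settings.

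The fibrinogen genes varied by less across these parts than between the libraries. Fga stood at 5646, 7664 and 8356 CPM (0.57), Fgb at 5301, 7152 and 8148 CPM (0.62) and Fgg at 3983, 5676 and 6384 CPM (0.68) from the lowest to the highest part. The Fgb call was lost in 3 of 6 other settings. In the lowest part Saa2 stood at 231 CPM and Saa3 at 15.1 CPM, against 217 and 6.54 CPM over all fed hepatocytes. In the lowest part of the fed library Saa2 stood at 61.9 CPM and Saa3 at 1.565 CPM. Like for like, the lowest part at 16 h was thus above fed in these acute-phase genes too. Fga, Fgb and Fgg of that part lay above all fed hepatocytes by log2 ratios of 0.55, 0.77 and 0.44, and above the lowest part of the fed library by 0.68, 1.13 and 0.74. No other coagulation gene was called, and those assessed ran from -0.25 (Serpind1) to 0.50 (Serpinf2, with Pros1 at 0.49).

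In the other libraries members called higher were 16, 15, 4 and 26 in number (0, 4, 8 and 24 h), against 3.60%, 4.69%, 2.77% and 7.02% of all genes. With the share of Saa1, Saa2 and Saa3 alone these counts were 0, 3, 0 and 0 (0.182%, 1.72%, 0.0765% and 0.0387% of all genes). At 8 and 24 h the counts of 0 decide nothing, because these genes were too low to order the cells. Saa1, the highest, stood at 37.9 and 21.1 CPM there. Saa2 reached 30.3 CPM in the highest part at 8 h and 28.6 CPM at 24 h. At 0 and 4 h the counts depended on the score. Among cells with at least 5000 UMIs the first score gave 3, 13, 3 and 25. Over all cells it called Serpinc1, Plg and Kng2 in each of these libraries, but not at 16 h (0.06, 0.19 and 0.09). Fga, F9, F13b and Klkb1 were called in none. The few coagulation calls at 16 h thus do not describe these libraries.

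**Figure D5:**
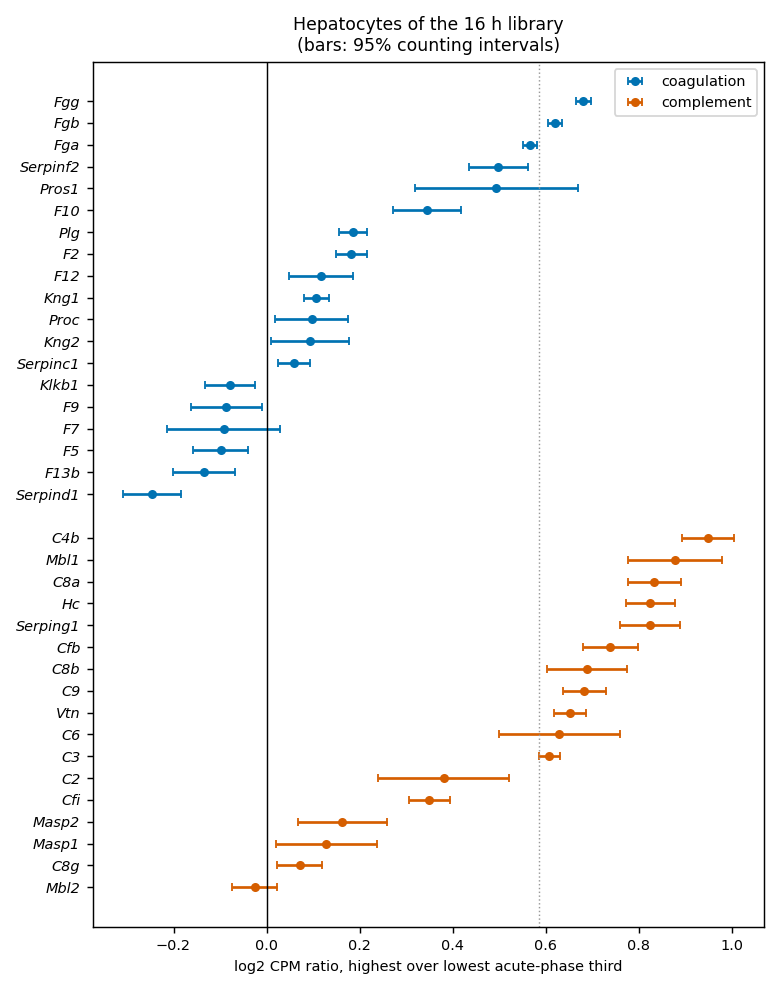
Log2 ratio of CPM in the highest over the lowest part of hepatocytes by acute-phase share, 16 h library, for the 36 members at 50 CPM or more in either part (rows, sorted within coagulation and complement), with 95% counting intervals. The dotted line marks 1.5-fold. Of the complement genes 11 of 17 lie beyond it, and of the coagulation genes Fgb and Fgg.

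Neighbouring members did not always move alike. At 50 kb or less, 7 pairs of members lie next to each other. The fibrinogen genes and the C8a and C8b pair shared their direction at 16 h and 24 h. F7 and F10, 1498 bases apart, stood at 0.14 and -0.37 against fed at 24 h. Kng1 and Kng2 stood at -0.63 and 0.02 there, but both were below fed at 4, 8 and 16 h. The division of reads between these 2 is uncertain, and the 24 h call for Kng1 was lost in 4 of 11 other settings. C2 and Cfb stood at -0.79 and -0.17 at 24 h, alike in direction and unlike in size, and both were below fed at every fasted time.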

How the data were processed

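RNA of isolated mouse hepatocytes was read with 10x 3′ v3 chemistry, 1 library per time. The deposited counts are UMIs per gene and barcode, made by the authors with Cell Ranger 6.0.1 on mm10, per the submitters' processing notes. The filter that left 10000 barcodes per library and the annotation version are not given in the sources used here.

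Hepatocytes were barcodes with at least 1000 UMIs, 500 genes and 2 to 30% mitochondrial UMIs. No doublet caller was run. UMIs were summed per library and divided by nuclear-encoded UMIs (CPM). Levels carry exact Poisson and log2 ratios exact conditional binomial 95% intervals, which cover counting error only. Calls needed 1.5-fold and 50 CPM in either library. With 1 library per time no test was possible. The zone score was z(log1p Cyp2f2) minus z(log1p Cyp2e1) per 10000 UMIs.

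The members and gene lists were chosen with earlier results of these data known. Named genes were all members, the 3 highest and 3 lowest of each list of other genes at 24 h, acute-phase, zone and marker genes. Positions are GENCODE M21 (GRCm38) and promoters RefSeq. The interval and TMM code was tested on simulated data. Tables were handled with pandas 2.3.3 in Python 3.11.15, intervals came from scipy 1.17.1 with numpy 2.4.6, and plots from matplotlib 3.10.9. Alternatives changed the barcode limits, scaling, denominator, free RNA, expression minimum and scores.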

Additional observations from a re-analysis of the deposited data

Results flagged for a closer look

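Barcodes with under 2% mitochondrial UMIs were kept out of the values above, except those from the setting with no lower mitochondrial limit. Among members at 50 CPM or more in either library, 3 of 32 at 8 h and 10 of 32 at 16 h were at least 2-fold above the fed library there (7.27% and 6.68% of all genes at that level), comparing 576 and 234 barcodes with 2172 fed barcodes of the same kind. At 8 h the log2 ratios were 1.07 for C6, 1.41 for C8g and 1.09 for C9. At 16 h the fibrinogen genes stood at 1.76 (Fga), 1.66 (Fgb) and 1.13 (Fgg). Other coagulation genes at 16 h were F2 (1.07), Klkb1 (1.33), Plg (1.29) and Serpinf2 (1.34). Complement genes at 16 h were C3 (1.31), C4b (1.03) and C9 (1.02). None was 2-fold higher at 4 h (5345 barcodes, 4.34% of all genes) or 24 h (5400 barcodes, 9.02%). There 1 of 31 members at 4 h (Kng1, -1.29) and 10 of 31 at 24 h were at least 2-fold lower (11.9% and 16.9% of all genes), among the latter Fga (-1.70), Kng1 (-1.43), C8a (-1.70) and C8b (-1.72). C6, under 50 CPM in both, stood at -5.12 at 24 h.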

How the results depend on the processing

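No paired analysis was possible because each time had 1 library, and for the same reason no library could be left out of a group. Of 165 counts of called members under other settings, 132 were within 1.5 times the main count and 33 were not, and the cause of these shifts was not tested. Percentages here are of all genes called in either direction under the same setting. Against fed, the count moved from 3 (30.2%) to 7 at 4 h with no lower mitochondrial limit (32.5%), with at most 15% mitochondrial UMIs (44.4%) and with all UMIs as denominator (32.2%). It moved from 9 (41.0%) to 5 (41.7%) at 8 h with at least 5000 UMIs, and from 10 (37.05%) to 16 (44.3%) at 24 h with at most 15%. All 27 calls against fed kept their direction and 18 stayed past 1.5-fold throughout. For steps between libraries these were 32 and 21 of 32, for the portal axis 33 and 8 of 33, and for the acute-phase parts at 16 h 13 and 6 of 13.

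For the portal axis, the counts at 0, 4, 8, 16 and 24 h were 3, 9, 0, 3 and 18 (6.47%, 10.65%, 4.70%, 8.13% and 28.5%). No lower mitochondrial limit gave 20, 25, 14 and 32 at 0, 4, 8 and 24 h (29.5%, 32.4%, 14.9% and 66.3%). At most 15% gave 7 and 26 at 0 and 4 h (7.92% and 41.1%), and at least 5000 UMIs 0, 5 and 1 at 0, 4 and 24 h (2.13%, 6.89% and 2.70%). A lower limit of 5%, added after seeing the data, gave 0 at 0 h and 0 at 24 h (3.70% and 5.84%). Means of cells gave 9 and 19 at 0 and 4 h (17.9% and 31.4%), and the landmark score 3 and 2 at 8 and 24 h (6.62% and 12.2%). With 5 equal parts there were 11, 16, 8 and 5 at 0, 4, 8 and 16 h (13.8%, 13.1%, 9.46% and 12.6%). For the acute-phase parts the counts were 16, 15, 4, 13 and 26 (19.7%, 14.6%, 7.09%, 6.83% and 62.0%). No lower limit gave 34, 34 and 12 at 0, 4 and 8 h (45.95%, 51.9% and 8.72%), at least 5000 UMIs 3 at 0 h (2.71%), and at most 15% 7 at 16 h (4.47%). The serum amyloid genes alone gave 0, 3, 0 and 0 at 0, 4, 8 and 24 h (0.948%, 3.51%, 0.421% and 0.0387%). At 8 and 24 h these genes were too low to order the cells. Per-cell depth, lowest at 16 h, limits the values within parts.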
